A study of Canis lupus familiaris with 4 samples.

Results

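The first 6 Mb of dog chromosome 12, the stretch named for the dog major histocompatibility complex (MHC), was described by the accessibility of its peaks in MDCKII cells. MDCKII is an epithelial line from canine kidney that forms polarised monolayers. Members were the peaks of chromosome 12 with a midpoint at or below 6000000 (CanFam3.1), which gave 457 of the 1652 peaks of that chromosome and of 59081 peaks in all. The assay was ATAC-seq: the transposase Tn5 inserts sequencing adapters where chromatin is open, so reads pile up at accessible sites. Libraries A and B of mature monolayers had been grown for 7 d (n = 2), and libraries A and B of reseeded cells came from monolayers of the same age that were detached and plated again for 2 h (n = 2). All 4 libraries are of the wild-type line (wt in the sample names), and no other genotype or agent is named.

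The MHC holds genes by which cells show peptides to T cells. Class I molecules are carried by most nucleated cells and display peptides from inside the cell, which the proteasome subunits PSMB8 and PSMB9 help to cut and the transporter TAP1 and TAP2 brings to them with the help of tapasin (TAPBP). Class II molecules display peptides taken up from outside and are found mainly on specialised immune cells, though epithelial cells can be brought to make them. Between these lie the class III genes, among them the cytokines TNF, LTA and LTB and the complement genes C2 and CFB. In dogs the class I and class II genes carry the prefix DLA.

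The deposited peaks carry no gene names, and no annotation of their build was used here, so the label could not be checked against genes and no peak was assigned to one. As a guide to what the chromosome holds, 20 MHC genes were looked up in the RefSeq list for another dog assembly (UU_Cfam_GSD_1.0), and 20 were found on its chromosome 12. Their order there begins with the class I gene DLA88, the class I-like gene MICA and the class I gene DLA-64. It goes on through LTA, TNF and LTB, then C2 and CFB. It continues with class II genes (DLA-DRA, DLA-DQA1, DLA-DQB1, DLA-DOB), the peptide-handling genes TAP2, PSMB8, TAP1 and PSMB9, further class II genes (DLA-DMB, DLA-DMA, DLA-DOA) and TAPBP. These genes stand between the 32nd and 125th protein-coding gene in order along the chromosome.

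Total counts in all peaks were 8759513 and 6253706 in mature A and B and 16906566 and 24015663 in reseeded A and B, of which the region held 80774, 56872, 144165 and 206592. Levels are given as CPM, counts scaled to a fixed library total with trimmed-mean (TMM) factors, and a floor of 3 counts equals 0.348, 0.486, 0.175 and 0.123 CPM in the same order. Over the tested members (peaks, not replicates), log2(CPM + 0.5) correlated at a Pearson's r of 0.978 within the mature pair, 0.991 within the reseeded pair; any mature with any reseeded library gave 0.518 to 0.534. The labels do not say whether A and B were grown as separate cultures, and a p-value here therefore covers the spread of these 4 libraries alone, possibly only technical. The sample names of the groups begin with different codes, and a batch tied to that code cannot be told apart from reseeding. Intervals and floors cover counting error only.

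Peaks were dense here. The region held 76.2 peaks per Mb, against 18.0 per Mb from 6 Mb to the last peak of the chromosome, and the median distance between neighbouring midpoints was 6169 bp against 11744 bp. Among the first 6 Mb of the 38 numbered chromosomes, that of chromosome 12 had the second-most tested peaks (rank 2). Between neighbouring peaks, 4 stretches of at least 100 kb held no peak at all, the longest of them from 1713844 to 2096660 (383 kb), with others from 13821 to 195142, from 1610073 to 1713342 and from 2271189 to 2417237.

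More peaks of the region were lower than higher 2 h after reseeding, but most of the losses were small. Of 456 tested members, 227 fell (49.8%, against 41.8% of all 59076 tested peaks) and 141 rose (30.9%, against 42.3%), by edgeR's quasi-likelihood test at a Benjamini-Hochberg adjusted p under 0.05. In all, 368 members were called (80.7%), a share near the 84.1% of all tested peaks. Among at least 2-fold differences gains outnumbered losses under TMM scaling but hardly under loess offsets, which follow a trend on the mean level. Under TMM there were 82 members higher (18.0%, against 26.9% of all tested peaks) and 51 lower (11.2%, against 15%). At least 4-fold differences were found at 33 higher members (7.24%, against 10.1%) and 17 lower members (3.73%, against 6.04%). Under loess offsets 67 members gained and 65 lost 2-fold or more (14.7% and 14.3%, against 20.2% and 17.1% of all tested peaks), and 22 gained and 24 lost 4-fold or more. The 2-fold shares thus lay below those of the whole table in either direction under both. Called changes of under 2-fold made up 51.5% of the members, against 42.2% of all tested peaks.

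The median log2 fold (reseeded over mature) of the members was -0.21, with quartiles of -0.60 and 0.58, against -0.0086 over all tested peaks. The groups overlapped in CPM at 52 of the 456 members, while 91.5% of all tested peaks had no overlap. Of the other members, both reseeded libraries lay below both mature ones at 245 (53.7%, against 45.8% of all tested peaks) and above at 159 (34.9%, against 45.7%). When tested against a fold of 1.5, 184 members were called, and then 98 were higher and 86 lower. The excess of lower members therefore rests on folds too small to pass that test. The member from 3838314 to 3838814, with counts of 5, 9, 0 and 3, was too weak to be tested.

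**Figure D1:**
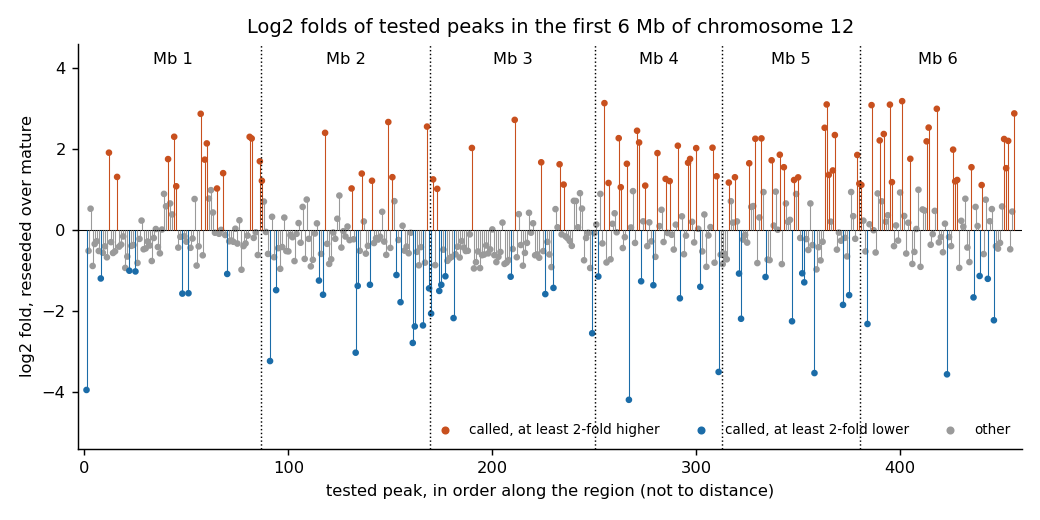
Log2 fold of each of the 456 tested members (y axis), in their order along the region (x axis, not to distance), with dotted lines between windows of 1 Mb. Many small losses (grey, below 0) fill the first 3 windows, and at least 2-fold gains (orange) number 28 in the first 3 Mb and 54 in the next 3 Mb.

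The region lost accessibility relative to the pooled rest of its chromosome, though parts of that rest also fell. It held 33.7% and 33.9% of the counts of chromosome 12 in mature A and B and 30.5% and 30.7% in reseeded A and B. The mature libraries were both above the reseeded ones, and the groups differed by many times the spread within them. The log2 ratio of region to rest was -0.968 ± 0.00939 in mature and -1.18 ± 0.00731 in reseeded cells (mean ± SD, n = 2 per group), a difference of -0.21 that needs no scaling between libraries. An exact two-sided permutation test over the 4 libraries gave p = 0.333, the smallest value that 2 against 2 can give. Peak by peak, the median log2 fold was -0.21 in the region and 0.13 in the rest, and gains of 2-fold or more were found at 18.0% of the members against 32.6% of the 1195 other peaks of the chromosome. At least 2-fold losses were about as frequent in both, at 11.2% and 11.7%. In tiles of 6 Mb under TMM scaling the adjoining tile, 6000001 to 12000000, fell more than the region (log2 fold -0.25 against -0.20). The tiles from 66000001 (-0.21) and 72000001 (-0.40) fell too. Between 12000001 and 66000000 the tiles rose, by 0.05 to 0.42, except that from 30000001, which was not called (-0.007). The loss was therefore not particular to the region.

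Against windows of like density, the next 3 Mb rose and the first 3 Mb did not differ beyond the spread of the libraries. All other windows of 1 Mb that held at least 63 peaks, as many as the sparsest window of the region, were pooled. Their 16891 tested peaks had a median log2 fold of -0.31, with gains of 2-fold or more at 16.5% and losses of that size at 19.4%. Large gains were thus about as frequent in the region as in those windows, whereas large losses made up 11.2% of the members. The log2 ratio of the region's counts to theirs was -5.26 and -5.29 in mature A and B and -5.17 and -5.15 in reseeded A and B, a rise of 0.12 (exact two-sided permutation p = 0.333, again the smallest possible). For the first 3 Mb alone that difference was -0.02, with overlapping groups (exact p = 1), and for the next 3 Mb it was 0.35 (exact p = 0.333). Against the first 6 Mb of the other numbered chromosomes the same ratio differed by -0.01, with overlapping groups (p = 0.667 by the same exact test), made up of -0.15 for the first and 0.23 for the next 3 Mb (exact p = 0.333 each). Of those other starts' 5382 tested peaks, 24.1% gained and 18.1% lost 2-fold or more.

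**Figure D2:**
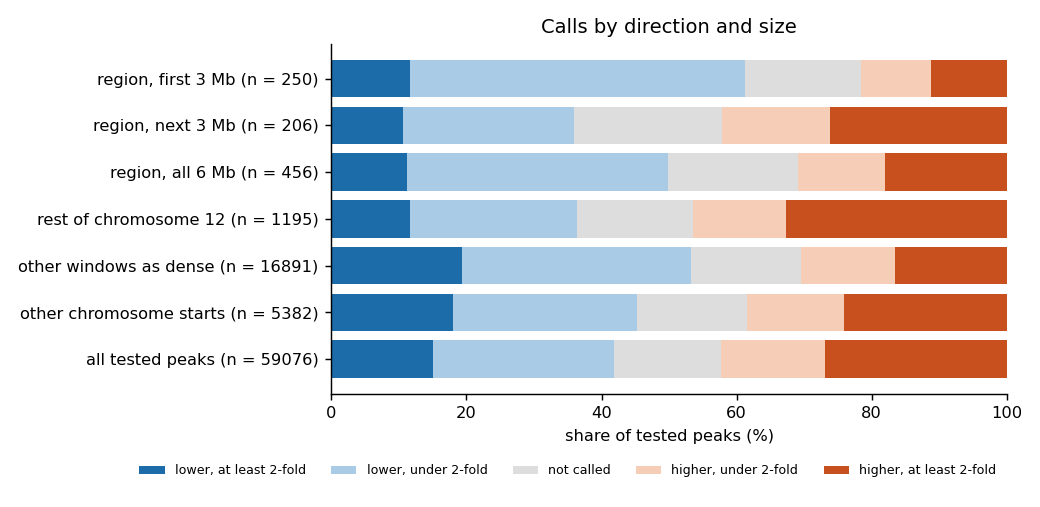
Share of tested peaks (x axis, %) that were called lower or higher, by at least or under 2-fold, or not called, for the region, its 2 parts of 3 Mb and 4 other sets of peaks. Under 2-fold losses take up most of the lower calls in the first 3 Mb, where 61.2% of peaks were lower, and at least 2-fold losses make up 11.2% of the region against 19.4% in other windows as dense.

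Of the 6 windows of 1 Mb, the first 3 lost most under TMM scaling, and the fifth had a small loss that changed sign under library size alone and loess offsets. Counts were summed in each window and tested with all 1803 windows of the genome. In the first window (1 to 1000000) the sum was 1992 and 1984 CPM in mature A and B and 1701 and 1712 CPM in reseeded A and B. In the second (1000001 to 2000000) it was 2212 and 2198 CPM against 1696 and 1699 CPM. In the third (2000001 to 3000000) it was 2191 and 2151 CPM against 1593 and 1600.2 CPM. In each of these windows both reseeded libraries lay below both mature libraries. The log2 folds were -0.22 (SE 0.02), -0.38 (SE 0.02) and -0.44 (SE 0.02), with edgeR adjusted p of 1.18e-05, 1.08e-06 and 8.40e-07.

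The next 3 windows held lower sums and changed little. In the fourth (3000001 to 4000000) the sum was 1050 and 1093 CPM in mature A and B and 1159 and 1184 CPM in reseeded A and B, a log2 fold of 0.13 (SE 0.02, edgeR adjusted p = 0.00122). In the fifth (4000001 to 5000000) it was 1019 and 1039 CPM against 970 and 971 CPM, a log2 fold of -0.08 (SE 0.02, edgeR adjusted p = 0.00263). In the sixth (5000001 to 6000000) it was 1136 and 1158 CPM against 1149 and 1175 CPM, with overlapping groups and no call (log2 fold 0.02, SE 0.02, edgeR adjusted p = 0.354). Over the genome 86.9% of windows were called, 42.6% lower and 44.3% higher, so the calls themselves set no window apart.

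Summed over all 6 Mb, the region gave 9480 and 9488 CPM in mature A and B and 8239 and 8306 CPM in reseeded A and B. Among 400 tiles of 6 Mb over the genome, of which 87.2% were called (42% lower and 45.2% higher), it had a log2 fold of -0.20 (SE 0.01, edgeR adjusted p = 4.92e-05) and was the 94th from the lowest. Scaling by library size alone moved the median log2 fold of all 1 Mb windows by 0.12. Relative to the median of all windows, the first 3 windows were at -0.24, -0.39 and -0.46 under TMM, DESeq2 and upper-quartile factors and library size alone alike. Each of these scales a whole library by a single factor, so that likeness holds by construction. Under loess offsets the 6 Mb sum rose (log2 fold 0.12) and so did the first window (0.12), while the second was not called (-0.02) and the third still fell (-0.10). For these sums the offsets followed the summed level of tiles or windows, not the level of single peaks. The sign of the summed change thus depends on whether a trend with that summed level is removed. Peak by peak, 217 members were lower and 126 higher under loess offsets, where all tested peaks also turned to 25431 lower and 21248 higher. The members' median log2 fold minus that of all tested peaks was -0.20 under TMM and -0.10 under loess offsets.

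**Figure D3:**
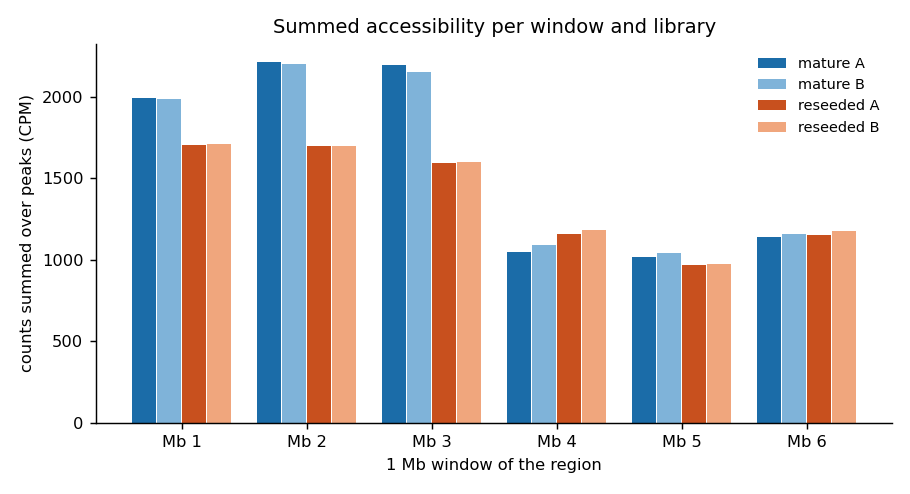
Counts summed over the peaks of each 1 Mb window (y axis, CPM, starting at 0) in each of the 4 libraries. The mature bars stand above the reseeded bars in windows 1 to 3, at 1984 to 2212 against 1593 to 1712 CPM, and the 4 bars lie close together in windows 4 to 6.

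Within the region the first 3 Mb and the next 3 Mb, a division made after the windows were seen, differed in direction under TMM scaling. Under loess offsets both medians were below 0, as was that of all tested peaks (-0.098). Relative to the latter, the first 3 Mb lay at -0.15 and the next 3 Mb at 0.08 under those offsets. Of 250 tested peaks in the first 3 Mb, 153 were lower (61.2%) and 54 higher (21.6%), and the median log2 fold was -0.36. Of 206 in the next 3 Mb, 74 were lower (35.9%) and 87 higher (42.2%), with a median of 0.14. Under loess offsets the counts were 136 lower and 53 higher (median -0.25) in the first 3 Mb and 81 lower and 73 higher (median -0.02) in the next. Under TMM, at least 2-fold gains were found at 11.2% and 26.2% of peaks, and at least 2-fold losses at 11.6% and 10.7%. The 2 stretches thus differed in the share of gains and of small losses, while large losses were about as frequent in both. The log2 ratio of counts in the first to the next 3 Mb was 0.997 and 0.945 in mature A and B and 0.606 and 0.589 in reseeded A and B, a difference of -0.37 (exact two-sided permutation p = 0.333, the smallest possible).

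The level of the peaks also differed between the 2 stretches. Median CPM in mature cells was 18.9 in the first 3 Mb and 11.8 in the next. Peaks were divided at 9.48 and 17.2 CPM, which split the whole table into 3 classes of equal size by mean CPM (groups weighted equally). In the high class lay 125 of the first 3 Mb's peaks (50.0%) and 64 of the next 3 Mb's (31.1%), and their median log2 folds were -0.39 and -0.27. In the middle class the medians were -0.27 and 0.21, and in the low class -0.06 and 0.50. The first 3 Mb thus had the lower median in each class. In the rest of chromosome 12 the medians were -0.29, 0.08 and 1.11 from the high to the low class, and low-class peaks made up 35.5% of it against 22.8% of the region.

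**Figure D4:**
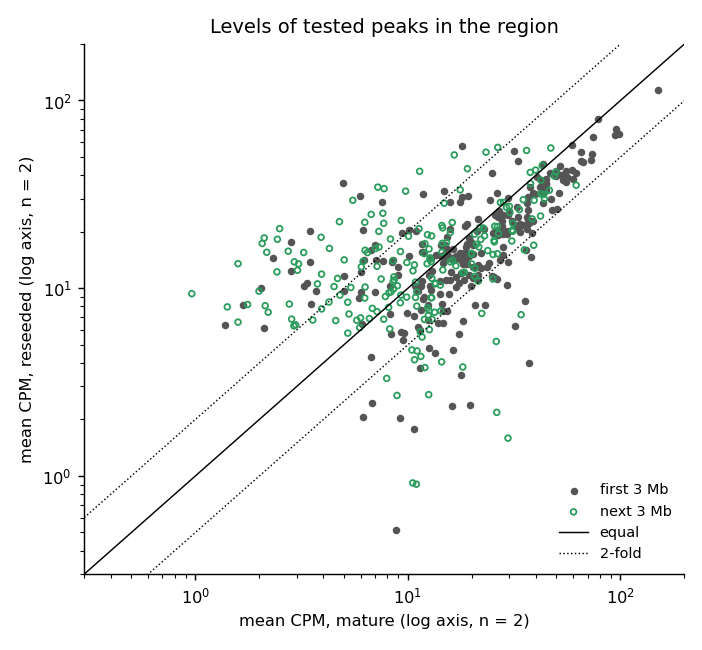
Mean CPM of each tested member in reseeded cells (y axis) against mature cells (x axis), both on log axes, with lines at equal levels and at 2-fold. Strong peaks lie mostly just below the line of equal levels, and the 50 peaks under 5 CPM in mature cells lie above it, as no member was under 5 CPM in both groups.

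The strongest peaks of the region lost a little or nothing. The strongest was at chr12:1570899-1571399, with 157.4 and 143.8 CPM in mature A and B and 112.4 and 113.6 CPM in reseeded A and B. Both reseeded libraries were below both mature ones, a log2 fold of -0.42 (SE 0.06, edgeR adjusted p = 4.50e-07). The next 3, at chr12:509715-510215, chr12:2537002-2537502 and chr12:2520473-2520973, went from mature means of 94.1 to 98.8 CPM to reseeded means of 65.3 to 70.3 CPM and had log2 folds of -0.45, -0.57 and -0.53. The sixth, at chr12:1284860-1285360, had a log2 fold of -0.21 (SE 0.07, edgeR adjusted p = 0.00411), and its call was lost without mature A, reseeded A or reseeded B (edgeR adjusted p = 0.0542, 0.0932 and 0.0580). All 6 lay in the first 3 Mb. Under loess offsets the strongest and the sixth turned to log2 folds of 0.15 and 0.16, and the peaks from 509715 and 2520473 were no longer called (-0.03 and -0.12).

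The fifth of the strongest peaks, at chr12:536525-537025, was level between the groups. It had 78.8 and 78.9 CPM in mature A and B and 78.2 and 81.1 CPM in reseeded A and B, and the reseeded pair enclosed the mature pair. Its log2 fold was 0.02 (SE 0.07, edgeR adjusted p = 0.815), and the exact 95% counting interval of its pooled ratio ran from 0.948 to 1.085. Among the members in the top 25% of level, it was 1 of the 4 with the log2 fold nearest 0. The other 3, at chr12:4479443-4479943, chr12:1298226-1298726 and chr12:530071-530571, had 27.1 to 59.3 CPM in every library and pooled ratios of 1.005 (interval 0.898 to 1.126), 0.982 (0.908 to 1.062) and 1.019 (0.913 to 1.139). Under loess offsets the peak from 536525 was called higher, with a log2 fold of 0.43, and that from 1298226 likewise (0.30).

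Peaks with large gains had low mature levels, which their choice by fold favours, since 0 members were under 5 CPM in both groups and a weak mature peak was in the table only through its reseeded level. The 82 members at least 2-fold higher had a median of 4.38 CPM in mature and 15.5 CPM in reseeded cells, the latter near the 14.8 CPM of members that were not called. They held 5.11% of the members' summed CPM in mature and 18.1% in reseeded cells. Only 7 of them (8.54%) had another peak within 1 kb, against 31 of 88 members that were not called (35.2%). That share was 32.2% at members called higher by under 2-fold and 33.5% at those called lower by under 2-fold. It was 25.5% at members at least 2-fold lower. No such share outside the region is given. Among the at least 2-fold higher members mature B exceeded mature A, with a median log2 ratio of B to A of 0.28. At members that were not called that ratio was -0.0035. The cause of this gap was not tested, and log2 folds without each mature library are given below for single gained peaks.

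The largest gains, called H1 to H8 in falling order of log2 fold, lay in the later windows, 7 of the 8 beyond 3 Mb. The peak H1 at chr12:5265613-5266113 had 11 and 4 counts in mature A and B (1.28 and 0.648 CPM) and 168 and 217 counts in reseeded A and B (9.80 and 8.90 CPM). Its log2 fold was 3.19 (SE 0.30, edgeR adjusted p = 8.68e-12), and the pooled ratio was 9.15 (95% counting interval 5.48 to 16.5). Without mature A its log2 fold was 3.82, without mature B 2.84, and under loess offsets 2.15. The peak H2 at chr12:3060807-3061307 had 1.74 and 3.24 CPM in mature A and B and 19.6 and 21.9 CPM in reseeded A and B. Its log2 fold was 3.14 (SE 0.19), and went to 2.69 without mature A and 3.57 without mature B.

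The only 1 of these 8 in the first 3 Mb, H8 at chr12:724660-725160, reached the highest level of the 8. It was 1 of 10 members there that gained 4-fold or more. It had 4.99 and 4.86 CPM in mature A and B and 37.1 and 35.6 CPM in reseeded A and B, a log2 fold of 2.88 (SE 0.13, edgeR adjusted p = 1.14e-19). The remaining 5 lay at chr12:4711032-4711532 (H3), chr12:5209141-5209641 (H4), chr12:5100703-5101203 (H5), chr12:5629382-5629882 (H6) and chr12:5977986-5978486 (H7), with log2 folds of 2.88 to 3.11. Around them gains were about as frequent as in the whole region. At 7 of the 8 the nearest tested peak was not at least 2-fold higher. Other tested peaks within 50 kb, summed over the 8, numbered 50, where peaks near both H1 and H4 count for each. Of these 10 gained 2-fold or more and 2 lost as much, against 18.0% and 11.2% of all tested members. In the next 3 Mb, where 7 of the 8 lay, those shares were 26.2% and 10.7%. No other gain of that size lay within 50 kb of H5 or H6.

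The largest losses lay in 4 windows and started from higher levels, which their choice favours. These are called L1 to L8, from the lowest log2 fold up, among members with a mean count of at least 50. As the reseeded libraries were deeper, that bound asks for more CPM in mature cells at a loss than in reseeded cells at a gain. Losses with mature means of 8.79, 10.5 and 11.0 CPM fell under it. The peak L1 at chr12:3194705-3195205 had 29.8 and 29.3 CPM in mature A and B and 1.46 and 1.72 CPM in reseeded A and B, with 25 and 42 counts left. It fell with a log2 fold of -4.19 (SE 0.16, edgeR adjusted p = 6.81e-22), a pooled ratio of 18.3 times lower (95% counting interval 14.2 to 24.1). Its nearest neighbour, 2736 bp away, had a log2 fold of 0.07, and within 50 kb 4 of 9 other tested peaks gained 2-fold or more and 0 lost as much.

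A further pair fell by over 9-fold. The peak L2 at chr12:5705872-5706372 went from 26.4 and 25.9 CPM in mature A and B to 1.98 and 2.38 CPM in reseeded A and B, a log2 fold of -3.56 (SE 0.15, edgeR adjusted p = 2.66e-20). The peak L3 at chr12:1031321-1031821 went from 38.9 and 35.1 CPM to 4.38 and 3.65 CPM, a log2 fold of -3.23 (SE 0.12). Within 50 kb, 1 of 15 other tested peaks near L3 lost and 2 gained 2-fold or more, and of 13 near L2 0 lost and 3 gained as much. The peaks L4 at chr12:1329679-1330179 and L6 at chr12:2984717-2985217 had log2 folds of -3.03 and -2.55.

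The other 3 of these 8 losses flanked the strongest peak of the region. Between 1565756 and 1573033, in 7.28 kb, lay 6 peaks that all fell. At one end were L5 at chr12:1565756-1566256 (17.2 and 15.2 CPM in mature A and B, 2.28 and 2.42 CPM in reseeded A and B) and L7 at chr12:1566574-1567074 (17.7 and 17.7 against 3.62 and 3.24 CPM). At the other was L8 at chr12:1572533-1573033 (32.8 and 31.3 against 6.36 and 6.23 CPM). Their log2 folds were -2.79, -2.38 and -2.35, while the strong peak between them fell with -0.42 and its 2 other neighbours with -0.54 and -0.87. Under TMM scaling, peaks within 7.28 kb therefore all fell, by factors from 1.34 to 6.89. Under loess offsets the strong peak did not fall (log2 fold 0.15).

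**Figure D5:**
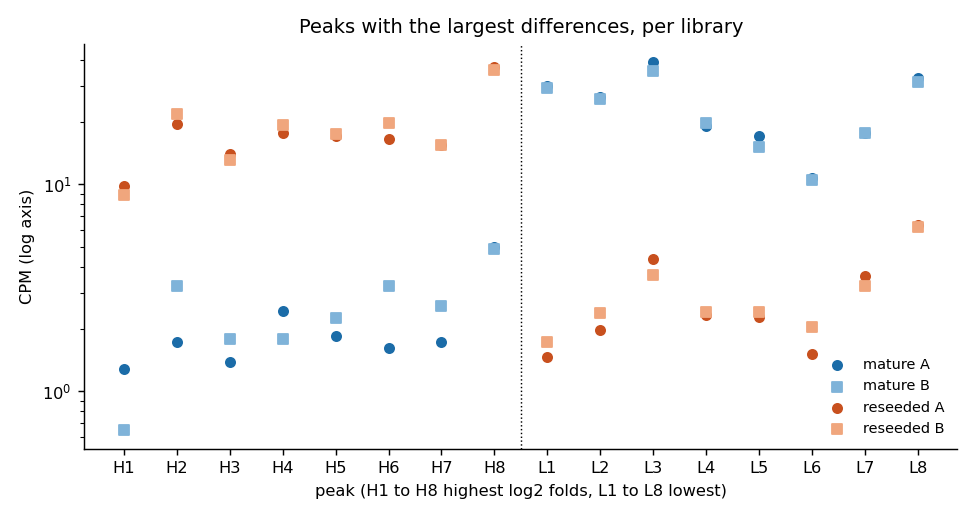
CPM (y axis, log scale) of the 8 highest (H1 to H8) and the 8 lowest (L1 to L8) log2 folds among called members with a mean count of at least 50, 1 point for each library. They were chosen for groups that do not overlap and for extreme folds, so their separation is a description, with mature levels of 0.648 to 4.99 CPM at the gains and 10.5 to 38.9 CPM at the losses.

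Weaker peaks, under that mean count, held 3 more losses of this size, chosen after their values were seen. The first peak of the chromosome, at chr12:13320-13820, 181 kb from its neighbour, had 58 and 67 counts in mature A and B and 5 and 18 counts in reseeded A and B, a log2 fold of -3.95 (SE 0.41). Without reseeded B that fold was -4.85, and mature B exceeded mature A (10.9 against 6.73 CPM). At chr12:4619762-4620262 and chr12:3989652-3990152 the log2 folds were -3.53 (SE 0.31) and -3.50 (SE 0.31).

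In bins of 100 kb that held at least 5 peaks, 23 of the region's 41 fell, 12 rose and 6 were not called (85% of 4851 bins over the genome were called, 42.2% lower and 42.8% higher). In the first 3 Mb 17 of 21 bins fell and 2 rose, and in the next 3 Mb 6 of 20 fell and 10 rose. The bin from 2200001 to 2300000, next to a stretch without peaks, had the lowest log2 fold, with 132.1 and 144.2 CPM in mature A and B and 75.2 and 80.2 CPM in reseeded A and B (-0.82, SE 0.06, edgeR adjusted p = 9.33e-07), and 6 of its 6 peaks fell. Next came the bin from 1500001 to 1600000, which holds the strongest peak (-0.58, SE 0.03), and that from 2600001 to 2700000 (-0.54, SE 0.03), where 12 of 14 and 9 of 11 peaks fell and 0 rose.

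The bin with the highest log2 fold lay within the first window, which as a whole fell. From 700001 to 800000 the sum was 101.1 and 105.6 CPM in mature A and B and 198.6 and 192.4 CPM in reseeded A and B, a log2 fold of 0.92 (SE 0.04, edgeR adjusted p = 4.72e-08). Of its 6 peaks 5 rose, among them H8. The bins from 5200001 to 5300000, which holds H1 and H4, and from 5400001 to 5500000 followed, with log2 folds of 0.54 (SE 0.04) and 0.53 (SE 0.06). These 6 bins kept direction and call under each of the 4 other scalings.

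Many groups of neighbouring peaks held both directions. With neighbours joined up to 10 kb apart, the 456 tested members fell into 175 groups, 81 of a single peak. Of the 94 groups of at least 2 peaks, 43 held both higher and lower calls. Another 13 held lower calls alone at every peak and 7 held higher calls alone at every peak. No count of such groups outside the region is given, so these numbers do not set the region apart. Of all tested peaks 42.3% were higher and 41.8% lower. The group with most members, 15 peaks from 2948875 to 2991630, had sums of 285 and 285 CPM in mature A and B and 286 and 289 CPM in reseeded A and B, with 6 lower and 4 higher peaks. The second, 12 peaks from 509715 to 551241, contains the strong peaks from 509715 and 536525 and went from 370.5 and 369.6 CPM to 339 and 341 CPM. The third, 11 peaks from 1319039 to 1360454 around L4, held 3 peaks with losses and 2 with gains of 2-fold or more.

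The fourth, 10 peaks in 15.9 kb from 477298 to 493168, was more uniform, with 8 lower and 1 higher peak, and its sum went from 220 and 222 CPM to 159 and 165 CPM. Several groups shared that number of 10 peaks, and the one from 1020145 to 1049269 around L3 had 7 lower and 2 higher. Of the 81 peaks with no other within 10 kb, 33 fell (40.7%) and 31 rose (38.3%), and of the 375 with a neighbour 194 fell (51.7%) and 110 rose (29.3%); this is a description with no test. Runs of at least 3 neighbouring tested members that all moved at least 2-fold one way numbered 4, all of 3 peaks, all higher, and none before 4678638. No run of losses of that length was found. Among the members at least 2-fold gains outnumbered losses of that size, 82 against 51. Neither the runs nor the shares by neighbour are set beside counts from outside the region, so they do not set it apart.

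The log2 folds of adjacent members were most alike at the shortest distances. Across 73 pairs of adjacent members up to 1 kb apart, Pearson's r of log2 folds was 0.50 and 71.2% of pairs had one sign, where r was 0.49 in the rest of the chromosome and 0.62 over all tested peaks. Across 130 pairs from 1 to 5 kb apart r was 0.20 with 62.3% of one sign, against an r of 0.38 and 0.33. From 5 to 20 kb r was 0.02 over 164 pairs, against 0.20 and 0.19. All points come from the same 4 libraries, pairs share peaks, and the closest peaks can be parts of a single open site, so these values are descriptions. Pairs of adjacent members that moved at least 2-fold in opposite directions numbered 0 of 73 up to 1 kb. From 1 to 5 kb they were 4 of 130, and from 5 to 20 kb 4 of 164. In the rest of the chromosome they were 1 of 115, 4 of 280 and 17 of 352. Over all tested peaks they were 115 of 6813, 648 of 14837 and 1003 of 18313. From 20 to 100 kb they were 3 of 84, against 28 of 337 and 967 of 15157. At that distance r was 3.5e-06, against 0.09 and 0.13.

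At the border of 6 Mb, neighbouring peaks differed in direction. The last peak inside, H7, had 1.74 and 2.59 CPM in mature A and B and 15.6 and 15.5 CPM in reseeded A and B (log2 fold 2.88). The first outside, at chr12:6005444-6005944, had 32.0 and 29.5 CPM in mature A and B and 3.21 and 2.87 CPM in reseeded A and B (-3.36).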

How the data were processed

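The authors deposited a table of raw counts per peak (ATAC-seq, 4 libraries), not normalized. Per the submitters' processing notes, Bowtie2, MACS2 and build CanFam3.1 were used. Versions, settings, duplicate handling, the Tn5 offset and the rule for entering peaks are not stated in the sources used; unremoved duplicates or multiply aligned reads would alter counts in repeated sequence, which the MHC holds. Each peak is 501 bp, chromosome accessions were read as chromosome numbers, and positions count from 1.

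The deposited counts were tested in R 4.3.3 with edgeR 4.0.16 (filterByExpr, TMM factors, glmQLFTest, no block, Benjamini-Hochberg over 59076 tested peaks). An SE is the log2 fold over the root of F. Tiles of 6 Mb, windows of 1 Mb and bins of 100 kb, each with at least 5 peaks, were summed and tested alike, each with its own TMM factors. The peaks named were, by rule, the 8 largest gains and the 8 largest losses in log2 fold (called members, mean count 50 or more, groups apart), the 6 strongest, the 4 most even in the top 25% of level, the 1 Mb windows, the 3 highest and lowest bins, and the groups with most peaks. Alternatives were other scalings, filters, borders and thresholds, DESeq2 1.42.0, a replicate block, merged sites and each library left out. On simulated counts for 59081 peaks, edgeR found 79 of 100 peaks simulated at a fold of 1.5 and 98 of 100 at a fold of 2. It made 11 false calls. No other peak was changed in that simulation, and all peaks shared a single dispersion. Scaling when most peaks change, a trend with level and spread that differs between peaks were thus not covered. Members, lists and tests were chosen with earlier results of these data known. Python 3.11.15 with scipy 1.17.1 and matplotlib 3.10.9 did the rest. No sequence of the build was used.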

Additional observations from a re-analysis of the deposited data

How the results depend on the processing

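Of 262 alternatives for the main counts and values, 218 kept direction and their side of the threshold (counts within 1.5 times, untested values within 1 SD), as did 401 of 428 for single peaks and bins, including all 224 for H1 to H8 and L1 to L8. Tested values could still shrink: under loess offsets window 3 went from -0.44 to -0.096 and the bin from 1500001 from -0.58 to -0.28. Borders moved the counts by construction. At 3 Mb, added after the data were seen, 207 members were called, 54 higher, 28 and 29 with gains and losses of 2-fold or more, and 10 and 9 of 4-fold or more; the median log2 fold was -0.36, -0.49 against the rest, and the region-to-rest difference -0.35. At 4 Mb, 77 were higher, 45 and 17 of them by 2-fold and 4-fold or more, and 11 were at least 4-fold lower, with -0.29, -0.42 and -0.27. At 5 Mb these 3 were -0.27, -0.40 and -0.25. At 7 Mb the last 2 were -0.36 and -0.27. Without the strongest 10% of peaks the region-to-rest difference was -0.29, and with sites merged the median against the rest was -0.42.

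The median log2 fold was -0.17 under upper-quartile factors (-0.1712) and library size alone (-0.1711), and against the rest -0.19 under loess offsets. Those offsets reversed the 6 Mb sum (0.12) and windows 1 (0.12) and 5 (0.060), ended the call of window 2 (-0.019), called window 6 (0.22) and reversed the peaks from 1570899 (0.15), 1284860 (0.16) and 1298226 (0.30). Library size alone reversed window 5 (0.033) and the peak from 1298226 (0.0174) and called window 6 (0.14); upper-quartile factors did likewise for that peak (0.0168) and window 6 (0.055). Library size alone moved all windows alike, by 0.12 in the median, and relative to that median window 5 stayed at -0.099 and window 6 at 0.0046. The cause of the loess changes was not tested. Against a fold of 1.5, 184 members were called and 86 were lower, and the 6 Mb sum (-0.20) and windows 1 to 5 (-0.22, -0.38, -0.44, 0.13 and -0.084) lost their calls, as their folds are smaller than that. With a library left out, 322 to 359 members were called, the median was -0.25 to -0.19, and against the rest -0.36 to -0.32. The even peaks crossed 0: the one from 4479443 ranged from -0.058 to 0.088, from 530071 from -0.027 to 0.086 and from 536525 from -0.022 to 0.041. The replicate block called 363 members and ended no window's or named peak's call; the letters did not show pairing, as A minus B differences correlated at 0.0433 across members. Bins of 50 kb gave 21 lower and 14 higher, and of 200 kb 14 and 9. Depth of the mature libraries limits folds at gained peaks, with 4 to 43 counts in H1 to H8.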
